A study of Mus musculus with 8 samples.

Results

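G protein-coupled receptors carry signals from hormones, nutrients and nerves into the cells of the pancreatic islet, and 49 genes of such receptors were followed here in sorted beta cells. The 49 were taken by name from the 55487 genes of the deposited tables, through the gene symbols of GENCODE M21, and all 49 were found (Gpr56 under its present symbol Adgrg1). They were compared between 4 Control and 4 Chd4KO libraries, grouped by ligand into 3 incretin and glucagon receptors, 5 fatty acid receptors, 1 bile acid receptor, 10 amine receptors, 16 peptide receptors, 9 receptors of other ligands and 5 orphan receptors. Both groups came from tamoxifen-treated mice whose islets were dispersed and flow-sorted for beta cells, and the Chd4KO group, called Chd4Db in the series design, is labelled as a knockout of the chromatin remodeler gene Chd4. In bulk libraries fewer cells of a type and less RNA per cell cannot be told apart. Each title carries its own animal number, so each library counts as 1 mouse. All Control numbers precede all Chd4KO numbers, and whatever the numbering marks cannot be told apart from genotype. The Cre driver, the alleles of the Control mice, their age, sex and strain are not given in the sources used here.

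In beta cells these receptors act on insulin release through a few G proteins. Receptors coupled to Gs raise cAMP and strengthen glucose-stimulated release, those coupled to Gq raise calcium through phospholipase C, and those coupled to Gi lower cAMP and restrain release. Glp1r and Gipr, the receptors for the incretin hormones of the gut, are the best known of the first kind, and Adra2a, the receptor through which adrenaline stops insulin release, of the last.

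Levels are given as TPM, a read share scaled for gene length, so that genes can be compared. Chd4 had a TPM between 11.1 and 15.98 in Control and between 2.59 and 8.38 in Chd4KO (exact permutation p = 0.0286, two-sided, the smallest that 4 against 4 libraries can give). In the fit across all genes its log2 change was -1.18 ± 0.29 (SE, limma adjusted p = 0.0725), outside the threshold. The libraries held 14.9 to 41.0 M gene reads, a depth worked back from TPM. Insulin transcripts made up 62.0% of TPM in Chd4KO replicate 4 against 32.4 to 47.0% in the other 3 Chd4KO libraries and 38.1 to 41.8% in Control, and a larger share for insulin lowers the TPM of other genes in that library. Chd4KO replicate 4 also had the fewest genes at 1 TPM or more, 12702 against 14788 to 15923 in the other libraries. Of the 28 receptor genes that were tested, 17 had their lowest value of all 8 libraries in Chd4KO replicate 4, and 10 after median-of-ratios scaling. The cause was not tested. Acinar cell transcripts summed to 39609 TPM in Chd4KO replicate 2, to 1574 TPM in Control replicate 2 and to at most 225 TPM in the other libraries. All 12 beta cell markers passed the filter on low values, of which Slc2a2 and Mafa fell, and 9 alpha cell markers summed to 1521 to 2909 TPM in Control libraries against 856 to 4234 TPM. The receptor counts below are therefore also given without Chd4KO replicates 2 and 4.

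In Chd4KO beta cells the bile acid receptor gene Gpbar1 rose from near absence to 42.6 TPM, and Ffar4, the receptor for long-chain fatty acids, rose 2.35-fold. The oxytocin receptor gene Oxtr fell to 7.11% of its Control mean and the orphan receptor gene Gpr27 to 17.997%. The other 24 tested receptor genes did not pass the test, among them the incretin receptors Glp1r and Gipr. The test was limma on log2(TPM + 1), with adjustment over the 15189 genes that reached 1 TPM in 4 or more libraries. A gene passed when its adjusted p was under 0.05. The 4 genes are 14.3% of the tested receptors, beside 2.97% of all genes tested, 1.53% higher and 1.44% lower. Gpbar1, Oxtr and Gpr27 were known to change when the 49 were chosen, so the first share is no measure of receptors in general. The same 4 were called without Chd4KO replicates 2 and 4. The median log2 change was -0.49 over the 28 receptors and -0.25 over all genes tested. Under scaling by the median of ratios both medians moved up, to -0.24 and -0.02. Changes relative to the median gene were 5.02 for Gpbar1, 1.48 for Ffar4, -2.80 for Oxtr and -2.11 for Gpr27.

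**Figure D1:**
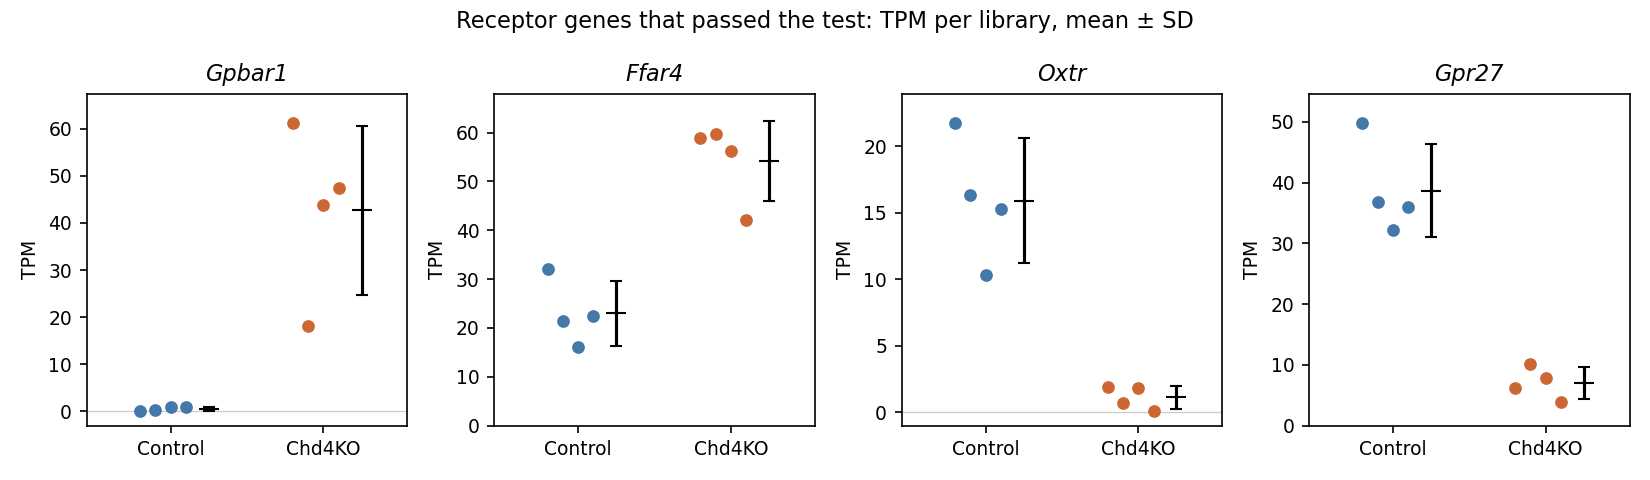
TPM in each library (y axis, from 0) of the 4 receptor genes that passed the test, with 1 point per library in replicate order and the mean ± SD beside the points. In each panel the 4 Control and the 4 Chd4KO libraries do not overlap.

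Gpbar1 encodes the cell surface receptor for bile acids, which couples to Gs. The gene (ENSMUSG00000064272, mm10 chromosome 1, 74278550 to 74279624) was listed at 0, 0.351, 0.872 and 0.874 TPM in Control replicates 1 to 4, which rested on 0, 7, 11 and 15 reads. In Chd4KO replicates 1 to 4 it was at 61.2, 18.04, 43.8 and 47.5 TPM, on 477, 137, 340 and 605 reads. Every Chd4KO library was above every Control library, and the lowest was replicate 2. Group means came to 0.524 ± 0.428 and 42.6 ± 18.03 TPM (SD, n = 4 each), a ratio of 81.3, and on the log2 scale the change was 4.76 ± 0.38 (SE, adjusted p by limma = 0.000612). Since no Control library reached 1 TPM, Gpbar1 entered the test only through its Chd4KO values. Among the 49 receptors it ranked 29th by mean TPM in Control and 9th in Chd4KO. No exon of another annotated gene overlaps it.

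The promoters of 3 of the receptor genes that changed are shown because Chd4, the gene named in the genotype, encodes a protein that acts on chromatin. Each is the RefSeq window of 300 bases on build GRCm38.p6, from 250 bases before the start to 50 after it, read on the gene's strand and in lower case, with every CG pair in capitals.
Gpbar1, chr1:74278350-74278649, plus strand: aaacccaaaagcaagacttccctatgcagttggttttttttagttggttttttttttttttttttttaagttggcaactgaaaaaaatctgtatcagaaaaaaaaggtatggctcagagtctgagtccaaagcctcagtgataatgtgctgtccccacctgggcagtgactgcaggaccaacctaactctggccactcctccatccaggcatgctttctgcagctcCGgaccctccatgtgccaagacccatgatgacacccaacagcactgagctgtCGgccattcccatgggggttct
Ffar4, chr19:38096829-38097128, plus strand: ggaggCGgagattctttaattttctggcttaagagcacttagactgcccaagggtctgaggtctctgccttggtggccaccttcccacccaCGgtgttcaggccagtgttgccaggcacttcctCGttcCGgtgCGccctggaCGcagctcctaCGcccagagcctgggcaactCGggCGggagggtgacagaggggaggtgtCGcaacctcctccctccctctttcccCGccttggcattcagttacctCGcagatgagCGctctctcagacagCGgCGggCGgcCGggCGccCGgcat
Oxtr, chr6:112489776-112490075, minus strand: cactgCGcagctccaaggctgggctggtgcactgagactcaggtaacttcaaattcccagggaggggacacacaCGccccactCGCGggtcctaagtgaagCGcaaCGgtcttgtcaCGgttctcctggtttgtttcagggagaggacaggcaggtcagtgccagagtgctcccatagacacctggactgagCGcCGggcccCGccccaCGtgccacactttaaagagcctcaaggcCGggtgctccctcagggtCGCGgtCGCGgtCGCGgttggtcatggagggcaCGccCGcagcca
The window of Gpbar1 holds 2 CG pairs, that of Ffar4 19 and that of Oxtr 20, beside a median of 7 over 32851 RefSeq promoter windows of that length. Of the 49 receptors 38 had a window, some more than 1, and the median over all their windows was 13. The GC box GGGCGG, searched on both strands, was found at 2 places in Ffar4 and at 1 in Oxtr, and 35.7% of all windows hold it. The E-box CACGTG was found at 1 place in Oxtr and is in 7.15% of all windows. The letters of the cAMP response element TGACGTCA (1.79% of all windows), of TATAAA (13.6%) and of the Maf half-site TGCTGA (19.5%) are in none of the 3 windows, and no matches overlapped each other.

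Within 100 kb of Gpbar1, 7 genes were tested and none was called. Arpc2, which encodes a subunit of the actin-nucleating Arp complex and ends 10.3 kb before Gpbar1, was at 134 ± 5.78 (Control) and 136 ± 14.4 TPM (Chd4KO, each with SD, n = 4). Aamp, which lies 0.216 kb past the end of Gpbar1 on the other strand, was at 134 ± 8.63 and 128 ± 17.6 TPM. The log2 changes of the 7 neighbours lay between -0.23 (Tmbim1) and 0.33 (Catip), beside 4.76 for Gpbar1.

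Gpbar1 is also known from myeloid cells, so markers of leukocytes were measured in the same libraries. The 12 leukocyte markers summed to 27.0 to 40.5 TPM in Control and 68.1 to 93.5 TPM in Chd4KO. The summed list was higher in every Chd4KO library than in any Control library. The same held for endothelial markers, at 5.61 to 6.11 TPM in Control and 6.41 to 9.60 TPM in Chd4KO. It also held for mesenchymal markers, at 0.148 to 0.610 and 0.816 to 1.57 TPM. The summed beta, alpha, delta, PP and epsilon, acinar and ductal lists overlapped between the groups. Of the 5 leukocyte markers that were tested, Cd68 and Fcer1g rose and 3 did not pass. Their median log2 change was 1.22, beside -0.25 over all genes tested. Some markers of the list were low in both groups. Ptprc, the antigen common to leukocytes, was at 0.0231 to 0.831 TPM in Control and at 0 to 0.158 TPM in Chd4KO. Adgre1 of macrophages did not exceed 0.306 TPM and Itgam of myeloid cells 0.0339 TPM in any library. The part of such cells in the Gpbar1 values was not tested.

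The 5 fatty acid receptor genes did not move as a group, with Ffar4 higher and 4 not called. Ffar4 (ENSMUSG00000054200, chromosome 19, 38097071 to 38114263) encodes a receptor for long-chain fatty acids known from delta cells and other islet cells. It was at 32.1, 21.5, 16.2 and 22.4 TPM in Control replicates 1 to 4 and at 58.9, 59.6, 56.3 and 42.1 TPM in Chd4KO replicates 1 to 4. The highest Control library, replicate 1, stayed below the lowest Chd4KO library, replicate 4. Group means came to 23.1 ± 6.65 and 54.2 ± 8.23 TPM (SD, n = 4 each), and Ffar4 changed by 1.22 ± 0.24 on the log2 scale (SE, limma adjusted p = 0.0276). The call was lost without Control replicate 2 (adjusted p = 0.106), 3 (0.0889) or 4 (0.102) and without Chd4KO replicate 1 (0.0601), 2 (0.0601) or 3 (0.0875), while the log2 change stayed between 1.08 and 1.51 over all 19 alternatives.

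The nearest tested gene to Ffar4 rose too. Rbp4, the gene of the plasma carrier of retinol, lies 2.37 kb past the end of Ffar4 on the other strand. Rbp4 was at 285, 125, 102 and 172 TPM in Control replicates 1 to 4 and at 747, 337, 569 and 646 TPM in Chd4KO replicates 1 to 4, without overlap. Its log2 change was 1.80 ± 0.36 (SE, limma adjusted p = 0.033). The only other tested gene within 100 kb, Fra10ac1, was at 15.9 ± 2.56 and 10.5 ± 1.37 TPM (SD, n = 4 each) and did not pass the test.

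Both Ffar4 and Rbp4 are known from delta cells, the somatostatin cells of the islet. The 5 delta cell markers, Rbp4 among them, summed to 763 to 1631 TPM in Control and 899 to 1786 TPM in Chd4KO. Sst, the somatostatin gene, was at 578 to 1322 TPM in Control and 552 to 1131 TPM in Chd4KO. Hhex, the transcription factor of delta cells, was at 1.053 to 1.452 TPM in Control and 0.464 to 1.041 TPM in Chd4KO, and Ghsr, the ghrelin receptor gene that marks delta cells, did not exceed 0.318 TPM in any library. The summed list and Sst overlapped between the groups, while Hhex was lower in every Chd4KO library than in any Control library. Sst and Hhex did not pass the test. The part of delta cells in the Ffar4 values was not tested.

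**Figure D2:**
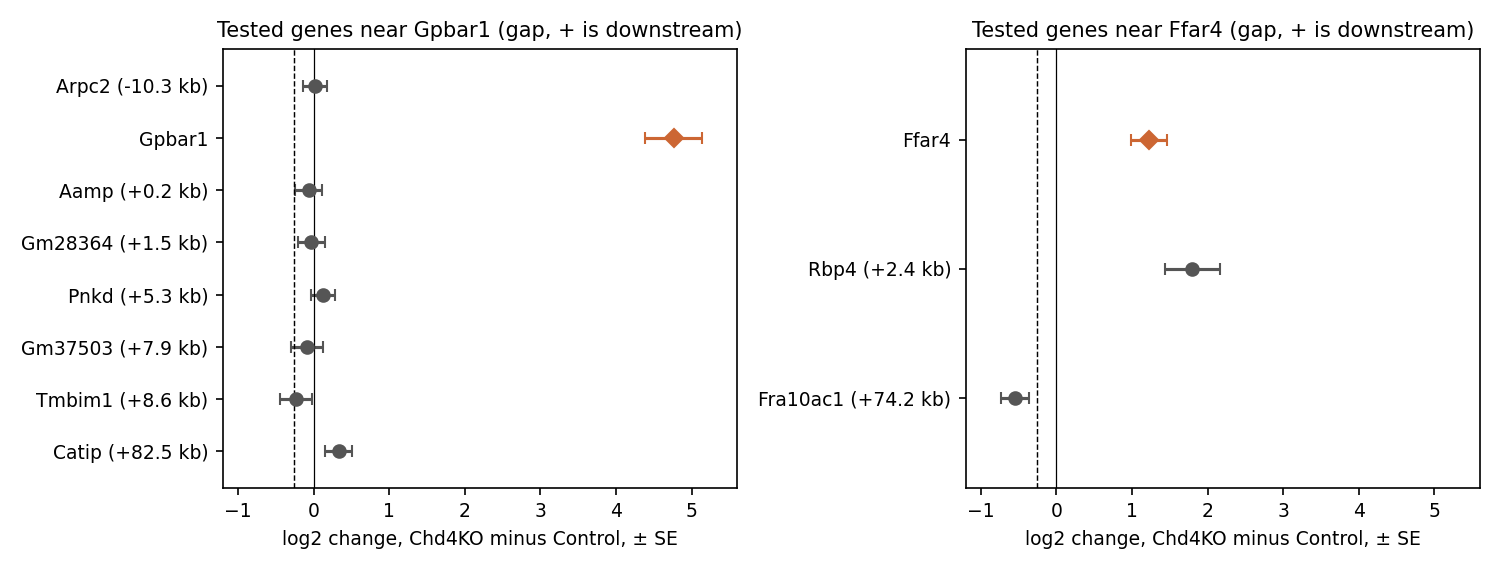
Log2 change ± SE (x axis, Chd4KO minus Control) of Gpbar1, Ffar4 and each tested gene within 100 kb, ordered along the receptor's strand with the gap in kb in parentheses, and the dashed line at the median of all genes tested. Gpbar1 stands alone at 4.76 among its 7 neighbours, and Ffar4 at 1.22 stands beside Rbp4 at 1.80.

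Among the other fatty acid receptors, Ffar2, for short-chain fatty acids such as acetate, was at 74.7, 55.2, 48.7 and 50.02 TPM in Control and at 23.6, 17.8, 32.4 and 40.5 TPM in Chd4KO. The groups did not overlap, with a log2 change of -1.02 ± 0.28 (SE), but the adjusted p of 0.0983 from limma missed the threshold. Without Chd4KO replicate 4, the highest of its group, the adjusted p of Ffar2 was 0.0261, and with array weights 0.0236. Under median-of-ratios scaling it was 0.388, and Chd4KO replicate 4 (75.0) then lay above all Control libraries (45.6 to 62.6), so that the Ffar2 groups overlapped. Ffar1, the long-chain fatty acid receptor of beta cells that couples to Gq, was at 26.2 ± 4.85 and 24.8 ± 4.18 TPM (SD, n = 4 each), and its log2 change was -0.07 in the fit and above 0 in 8 of 19 alternatives. Ffar1 and Ffar2 lie close together on chromosome 7 with Ffar3 between them (Ffar2 from 30818348 to 30823775, Ffar3 from 30854330 to 30856178 and Ffar1 from 30857390 to 30861564). Ffar3, for propionate and butyrate, was at 5.19 ± 1.49 and 3.79 ± 1.31 TPM. Gpr119, a Gs-coupled receptor for lipid amides such as oleoylethanolamide, was at 45.2 ± 3.69 and 49.9 ± 8.94 TPM, with a log2 change of 0.13 ± 0.19 (limma adjusted p = 0.713).

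The incretin and glucagon receptors held the largest summed level of any class, at 383 to 661 TPM in Control and 161 to 420 TPM in Chd4KO, and none was called. Glp1r, the receptor for glucagon-like peptide 1, ranked first of the 49 in both groups. It was at 568, 483, 252 and 362 TPM in Control replicates 1 to 4 and at 306, 151, 225 and 63.8 TPM in Chd4KO replicates 1 to 4. Chd4KO replicate 1 overlapped the Control range, and replicate 4 was lowest. After median-of-ratios scaling Glp1r was at 118 in Chd4KO replicate 4 and 136 in replicate 2, the next library. The log2 change of Glp1r was -1.30 ± 0.47 (SE, limma adjusted p = 0.217), and it lay between -1.61 and -0.60 over 19 alternatives without a call. Gipr, the receptor for glucose-dependent insulinotropic peptide, was at 61.95, 97.2, 75.4 and 64.7 TPM in Control and at 39.8, 51.5, 60.8 and 32.6 TPM in Chd4KO. The groups did not overlap, but the log2 change of -0.70 ± 0.25 did not pass (adjusted p = 0.206). After median-of-ratios scaling the Gipr ranges overlapped, at 51.9 to 87.8 in Control and 33.9 to 63.95 in Chd4KO, and the log2 change was -0.42. Gcgr, the glucagon receptor, pointed the other way, with means of 50.1 ± 16.7 and 74.2 ± 6.61 TPM (SD, n = 4 each). The Gcgr difference of 0.61 ± 0.26 on the log2 scale did not pass (SE, adjusted p by limma = 0.282). Control replicate 2, at 70.2 TPM, overlapped the Chd4KO range of 64.7 to 78.8 TPM.

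**Figure D3:**
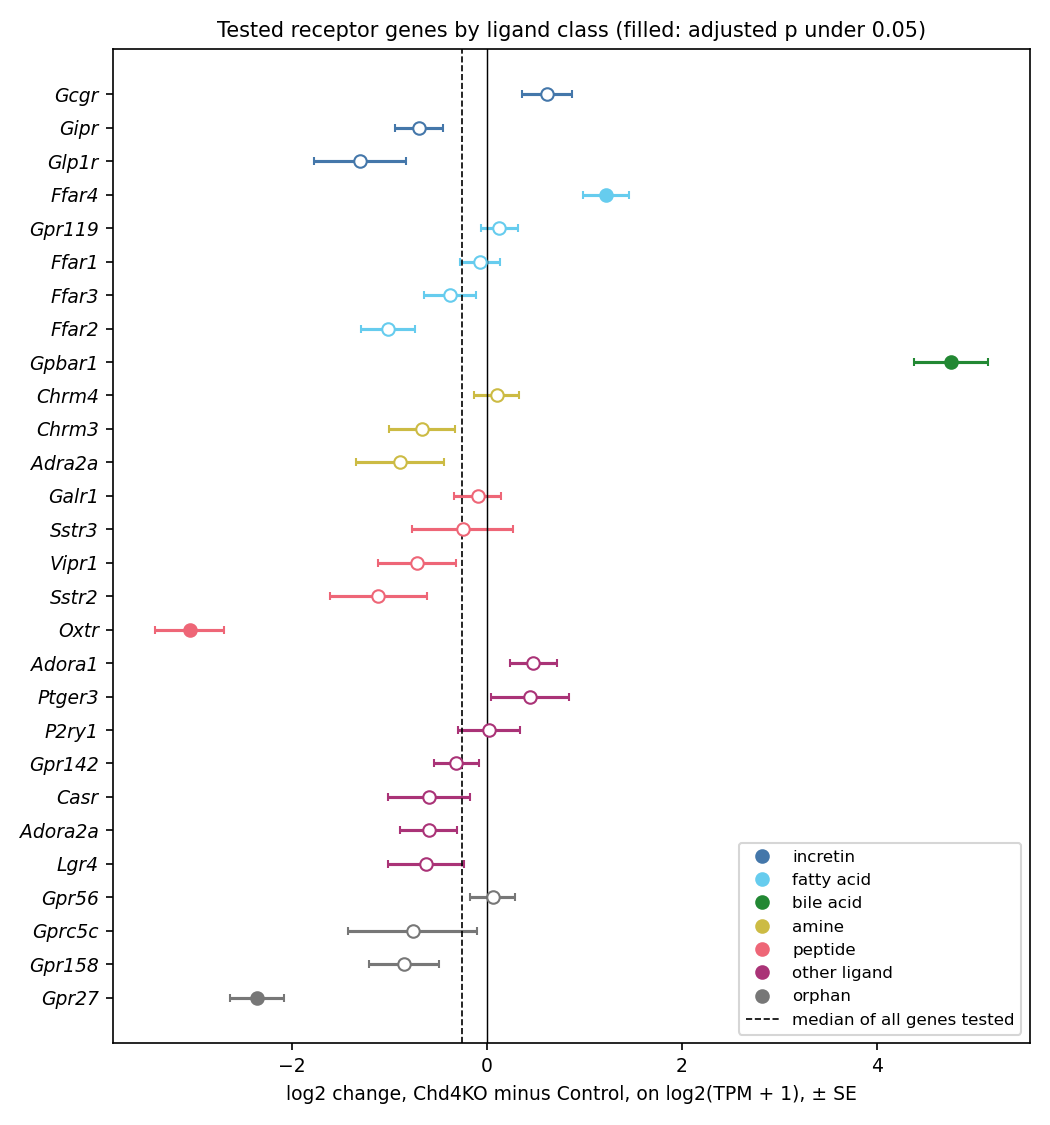
Log2 change on log2(TPM + 1) with its SE (x axis) for the 28 tested receptor genes, coloured by ligand class, with filled points for an adjusted p under 0.05 and a dashed line at the median of all genes tested (-0.25). Gpbar1 and Ffar4 lie to the right, Oxtr and Gpr27 to the left, and 24 open points lie between -1.30 and 0.61.

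Of the 16 peptide receptor genes 5 were tested, of which Oxtr fell and 4 were not called. Oxtr (ENSMUSG00000049112, chromosome 6, 112473683 to 112489943) encodes the Gq-coupled receptor for oxytocin. It was at 21.7, 16.3, 10.3 and 15.3 TPM in Control replicates 1 to 4 and at 1.90, 0.709, 1.82 and 0.0881 TPM in Chd4KO replicates 1 to 4. The groups were far apart, and the lowest value, in Chd4KO replicate 4, rested on 5 reads. Group means came to 15.9 ± 4.69 and 1.13 ± 0.882 TPM (SD, n = 4 each), which is 14.1-fold lower in Chd4KO, and on the log2 scale Oxtr changed by -3.05 ± 0.35 (SE, adjusted p by limma = 0.00242). No gene within 100 kb of Oxtr had levels high enough to be tested.

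Sstr3, a Gi-coupled somatostatin receptor, was at 70.04 to 106 TPM in Control. In Chd4KO replicates 1 to 4 it was at 116, 102, 106 and 19.6 TPM. Replicate 4 was thus far below the other 3 and below every Control library, and after median-of-ratios scaling Sstr3 was still lowest there, at 36.3 against at least 65.7 in the other 7 libraries. Its log2 change was -0.25 and turned above 0 in 4 of 19 alternatives. Galr1, the receptor for galanin, a peptide that inhibits insulin release, was at 39.5 ± 1.33 (Control) and 38.4 ± 12.5 TPM (Chd4KO, each with SD, n = 4). Its log2 change of -0.10 in the fit was above 0 in 8 of 19 alternatives, so no direction is given. Vipr1, a Gs-coupled receptor for vasoactive intestinal peptide, was at 12.8 ± 4.65 and 7.60 ± 3.24 TPM. Sstr2, at 1.14 to 5.73 TPM in Control, was listed at 0 in Chd4KO replicates 3 and 4 and was at 2.58 and 0.727 TPM in replicates 1 and 2 (limma adjusted p = 0.312).

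Of the 10 amine receptor genes 3 were tested and none was called. Adra2a, the Gi-coupled adrenergic receptor, was at 98.6, 106, 123 and 109 TPM in Control replicates 1 to 4 and at 89.2, 75.0, 86.1 and 19.3 TPM in Chd4KO replicates 1 to 4. The groups did not overlap, but the spread of the Chd4KO libraries was wide and the log2 change of -0.89 ± 0.45 did not pass (SE, limma adjusted p = 0.36). After median-of-ratios scaling the Adra2a ranges overlapped, with 82.6 to 115 in Control and 35.7 to 90.5 in Chd4KO. Chrm3, the Gq-coupled receptor through which acetylcholine raises insulin release, was at 6.37 ± 0.481 and 4.04 ± 2.06 TPM (SD, n = 4 each). Chrm4, a Gi-coupled muscarinic receptor, was at 1.01 to 2.06 TPM in Control and 1.06 to 2.49 TPM in Chd4KO.

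Of the 5 orphan receptor genes 4 were tested, of which Gpr27 fell and 3 were not called. Gpr27 (ENSMUSG00000072875, chromosome 6, 99692679 to 99695066) is an orphan receptor reported to act on insulin gene expression and release in beta cells. It was at 49.8, 36.8, 32.3 and 36.0 TPM in Control replicates 1 to 4 and at 6.12, 10.1, 7.77 and 3.89 TPM in Chd4KO replicates 1 to 4. Its lowest Control library was above its highest Chd4KO library, replicate 2. Group means came to 38.7 ± 7.64 and 6.97 ± 2.61 TPM (SD, n = 4 each), and Gpr27 changed by -2.36 ± 0.27 on the log2 scale (SE, adjusted p by limma = 0.00242). The tested genes within 100 kb, Eif4e3 at 13.3 ± 0.978 and 11.5 ± 2.91 TPM and Gm20696 at 1.64 ± 0.462 and 1.10 ± 0.604 TPM, did not pass.

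Gpr56, an adhesion receptor that binds collagen type III and is abundant in beta cells, ranked second of the 49 in both groups, at 152 ± 20.3 and 161 ± 39.6 TPM (SD, n = 4 each). Its log2 change was 0.06 ± 0.23 (SE, limma adjusted p = 0.899). Gprc5c was at 19.99 to 41.4 TPM in Control and, in Chd4KO replicates 1 to 4, at 38.8, 33.7, 11.2 and 3.19 TPM. The first 2 Chd4KO libraries thus lay within the Control range and the other two below it, and the SE of its log2 change, 0.66, was the widest of the 28. Gpr158, a receptor of the glutamate receptor family, was at 19.8 ± 4.64 and 11.4 ± 5.48 TPM (limma adjusted p = 0.289), and Gm13327 on the opposite strand shares 601 bases of exon with it, so that reads of the pair cannot be told apart in a library that does not mark strand.

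None of the 7 tested receptor genes of other ligands was called. Gpr142, a receptor for tryptophan and related amino acids, was at 42.1 ± 6.22 (Control) and 34.2 ± 8.65 TPM (Chd4KO, each with SD, n = 4). Casr, the calcium-sensing receptor, was at 21.3 ± 2.10 and 16.1 ± 9.89 TPM. P2ry1, a Gq-coupled receptor for extracellular ADP, was at 21.4 ± 4.55 and 22.9 ± 8.73 TPM, with 992 bases of exon shared with Gm37035. Adora1, the Gi-coupled adenosine receptor, was at 5.11 to 6.91 TPM in Control and at 10.2, 12.3, 7.14 and 5.82 TPM in Chd4KO, so that 1 Chd4KO library fell within the Control range. Its log2 change of 0.47 did not pass (limma adjusted p = 0.364), but was 0.72 with an adjusted p of 0.049 under median-of-ratios scaling, and 1162 bases of its exons are shared with Mybph. Ptger3, a prostaglandin E receptor, was at 9.74 ± 6.13 and 12.6 ± 4.14 TPM and Lgr4, a receptor for R-spondins, at 5.90 ± 0.765 and 4.06 ± 2.81 TPM. Adora2a, the Gs-coupled adenosine receptor, was at 0.876 to 1.94 TPM in Control and 0.221 to 1.80 TPM in Chd4KO.

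**Figure D4:**
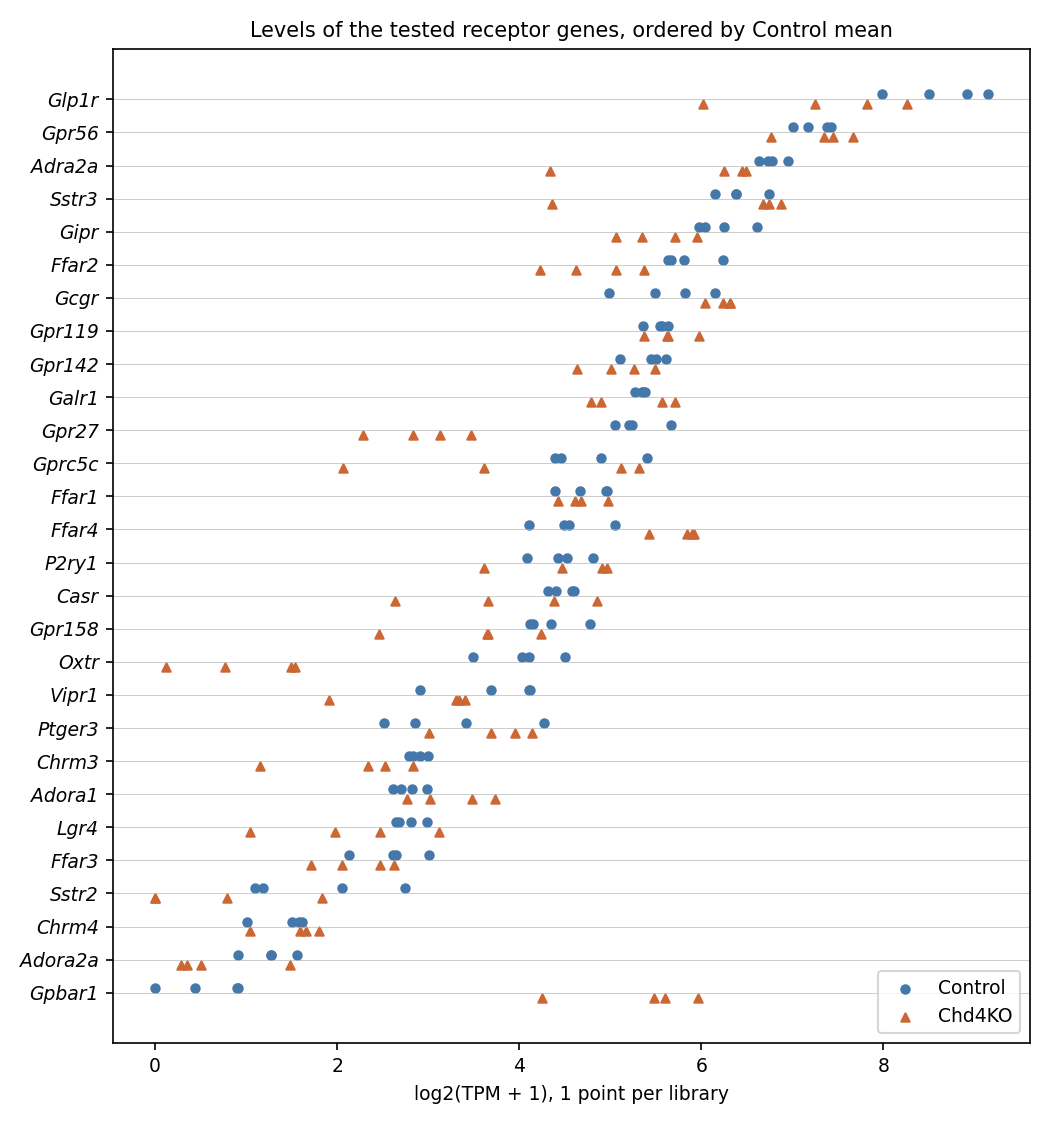
Level of each of the 28 tested receptor genes as log2(TPM + 1) (x axis), 1 circle per Control and 1 triangle per Chd4KO library, ordered by the Control mean. Glp1r and Gpr56 lead in both groups, Gpbar1 moves from the last place in Control among the higher ones in Chd4KO, and the lowest triangle of Adra2a and of Sstr3 is Chd4KO replicate 4.

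By order of level in Control, Glp1r at 416 TPM was followed by Gpr56 at 152, Adra2a at 109, Sstr3 at 85.2, Gipr at 74.8, Ffar2 at 57.1, Gcgr at 50.1 and Gpr119 at 45.2 TPM. From Adra2a downward each of these neighbours overlapped the next in its range over the 4 libraries. In all, 16 of the 49 had a Control mean of at least 20 TPM and 24 one of at least 5 TPM. The summed level of the 49 was 1097 to 1540 TPM in Control and 629 to 1298 TPM in Chd4KO, and 26 to 29 of them reached 1 TPM in a Control library and 25 to 31 in a Chd4KO library. By coupling, the 12 Gs receptors had 7 tested members with Gpbar1 higher, the 11 Gq receptors 7 with Ffar4 higher and Oxtr lower, and the 18 Gi receptors 8 with none called. The 7 receptors without an assigned coupling had 5 tested with Gpr27 lower, and Ffar2, listed under both Gi and Gq, was not called. The groups did not overlap for 7 of the 28 tested (25%), beside 14.8% of all genes tested, 3.54% higher and 11.3% lower. These were the 4 called genes with Gipr, Ffar2 and Adra2a, all 3 lower in Chd4KO. After median-of-ratios scaling those 3 overlapped, and 8 of the 28 did not, beside 15.6% of all genes tested (7.85% higher, 7.7% lower). The 8 were the 4 called genes with Gcgr, Chrm4 and Adora1, which were higher in Chd4KO, and Gpr158, which was lower. Gpbar1, Oxtr and Gpr27, known to change when the 49 were chosen, are among both the 7 and the 8. Neither count is therefore a measure of receptors in general.

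Below the minimum for the test were 21 receptor genes, of which 16 of the 49 stayed under 1 TPM in all 8 libraries. In 4 of the 21 the groups did not overlap, 3 of them higher in Chd4KO. Of the 16277 genes below the minimum with a value above 0 in any library, 5.15% did not overlap, 2.49% higher and 2.66% lower. Those genes include 20 of the 21 receptors. After median-of-ratios scaling Htr1d overlapped as well, and 3 of the 4 did not. The share of the 16277 genes was then 5.78%, with 3.56% higher and 2.22% lower. Sstr5, another somatostatin receptor, was listed at 0 in Control replicates 1, 3 and 4. In Control replicate 2 it was at 0.0592 TPM, which rested on 3 reads. In Chd4KO replicates 1 to 4 it was at 2.32, 0.518, 0.811 and 0.896 TPM, on 46, 10, 16 and 29 reads. In the fit without a minimum its limma adjusted p was 0.0993, so it did not pass. Crhr2, a receptor for urocortins, was at 0.138 to 0.411 TPM in Control and at 1.40, 5.81, 1.35 and 0.545 TPM in Chd4KO replicates 1 to 4. Htr1d, a Gi-coupled serotonin receptor, was at 0.117 to 0.794 TPM in Control and 0.819 to 2.90 TPM in Chd4KO. Mc5r, a melanocortin receptor, went the other way, at 0.387 to 0.874 and 0.0355 to 0.254 TPM. In the fit without a minimum the adjusted p was 0.306 for Crhr2, 0.4 for Htr1d and 0.231 for Mc5r.

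Cckar, the cholecystokinin receptor known from acinar cells, was at 12.9 TPM in Chd4KO replicate 2, at 1.04 TPM in Control replicate 2, at 0.15 TPM in Chd4KO replicate 1 and at 0 in the other 5 libraries. The 2 libraries highest in Cckar were also the 2 highest in summed acinar markers, at 39609 and 1574 TPM. Crhr2 was highest in Chd4KO replicate 2 as well, yet without that library its Chd4KO values still lay above all Control values. The part of acinar cells in these values was not tested.

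**Figure D5:**
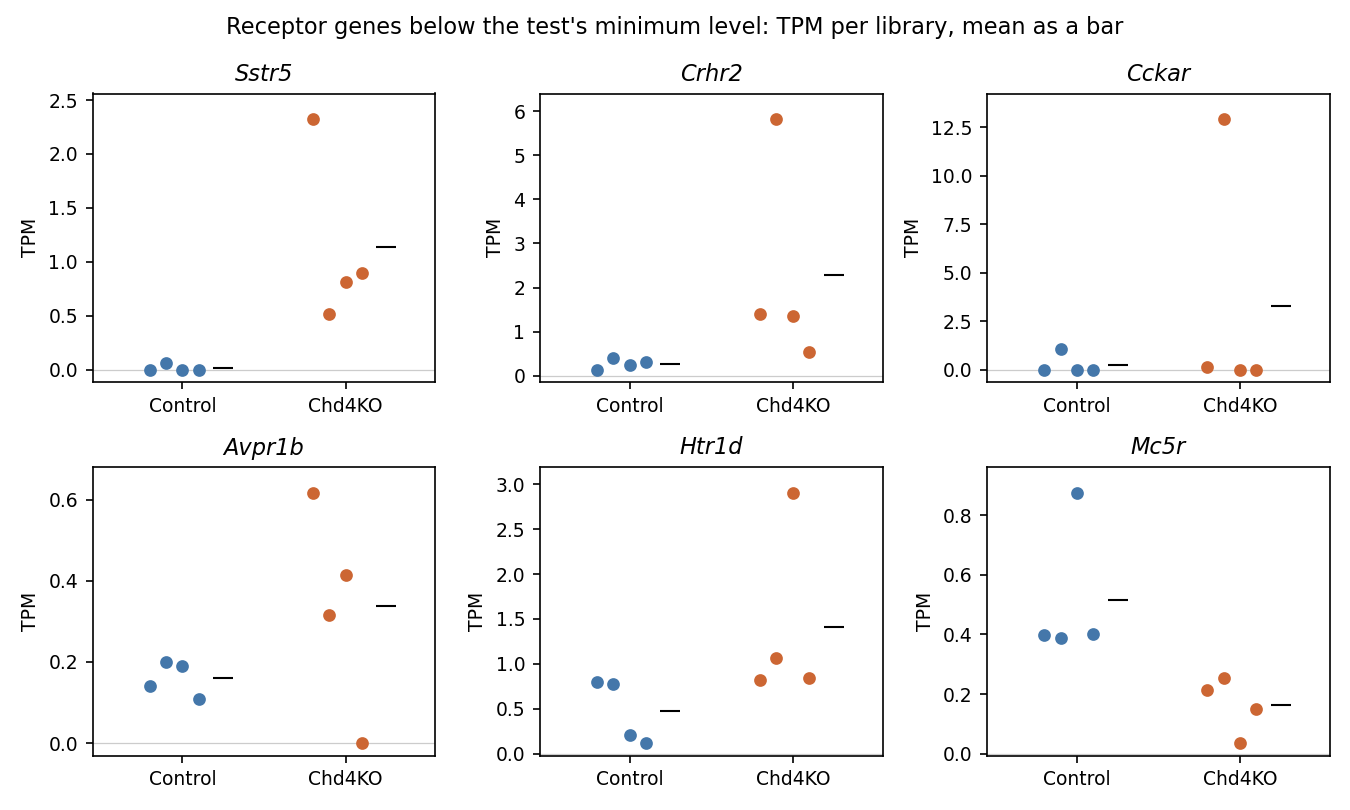
TPM in each library (y axis) of 6 receptor genes below the minimum level for the test, with 1 point per library in replicate order and a bar at the group mean. Sstr5 lies near 0 in Control and between 0.518 and 2.32 TPM in Chd4KO, and Cckar stands out in replicate 2 of Chd4KO at 12.9 TPM.

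The remaining low receptors showed no separation of the groups. Crhr1, a receptor for corticotropin-releasing hormone, was at 0.172 to 1.52 TPM in Control and 0.115 to 1.68 TPM in Chd4KO. Avpr1b, a vasopressin receptor, was at 0.109 to 0.201 and 0 to 0.617 TPM. Vipr2, a second receptor for vasoactive intestinal peptide, was at 0.0316 to 0.435 and 0.0757 to 0.825 TPM, and Cnr1, the cannabinoid receptor, at 0.212 to 0.536 and 0.107 to 0.236 TPM. The dopamine receptor genes Drd2, Drd3 and Drd4 did not exceed 0.542, 0.199 and 0.0419 TPM in any library. The genes Adra2c, Htr2b, Sstr1, Npy1r, Adcyap1r1, Lgr5, Gprc5b and Ghsr stayed at or below 0.201, 0.206, 0.472, 0.0156, 0.129, 0.0683, 0.438 and 0.318 TPM. Htr1b, a serotonin receptor, had 0 reads in all 8 libraries, and in these libraries 3 reads would be 0.0343 to 0.0899 TPM. Such limits cover counting error only.

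Other receptor genes of the family, picked by symbol, numbered 328, without olfactory, vomeronasal and taste receptors. Of the 55 that were tested, 2 rose, 3 fell and 50 were not called. The 5 are 9.09% of the 55, beside 2.97% of all genes tested (1.53% higher, 1.44% lower), and the median log2 change was -0.36, beside -0.25 over all genes tested. Adgrf3, an adhesion receptor, was at 0.223 ± 0.120 TPM in Control and rose to 4.87 ± 2.02 TPM (SD, n = 4 each), by 2.21 ± 0.24 on the log2 scale (SE, adjusted p by limma = 0.0017). Grm4, a metabotropic glutamate receptor, rose from 0.219 ± 0.195 to 2.45 ± 0.958 TPM (adjusted p = 0.0134). P2ry6, a receptor for UDP, fell from 6.08 ± 2.05 to 1.77 ± 0.502 TPM (adjusted p = 0.0199). Gpr39, a receptor for zinc ions, fell from 9.52 ± 2.002 to 3.73 ± 1.28 TPM (adjusted p = 0.037), and the orphan receptor gene Gpr26 from 3.30 ± 1.98 to 0.502 ± 0.0768 TPM (adjusted p = 0.0378). Both genes that rose were under 1 TPM in every Control library, as was Gpbar1, and so entered the test through Chd4KO. Gpr26, which fell, was at 0.430 to 0.611 TPM in Chd4KO and so entered the test only through Control, at 1.78 to 6.06 TPM. The count of 5 fell to 1 without Control replicate 2 or 4, to 2 without Control replicate 3 and to 3 without Chd4KO replicate 1 or 2.

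The steps that follow the receptors were covered by 8 lists with 107 genes, of which 78 were tested, 2 rose, none fell and 76 were not called. Gna15, an alpha subunit that couples many kinds of receptor to phospholipase C, was at 0.0661, 0.303, 0.12 and 0.264 TPM in Control and at 1.55, 1.59, 2.08 and 1.27 TPM in Chd4KO, a log2 change of 1.14 (limma adjusted p = 0.0103). Rgs19, which speeds the shut-off of Gi proteins, was at 2.03, 2.42, 2.98 and 2.39 TPM in Control and at 4.02, 5.84, 4.97 and 6.44 TPM in Chd4KO, a log2 change of 0.86 (adjusted p = 0.0482). In both genes every Chd4KO library was above every Control library, and Gna15, under 1 TPM in all Control libraries, entered the test only through Chd4KO. The 2 genes are 2.56% of those tested in the lists, near the 2.97% of all genes tested. The count of 2 fell to 1 without Control replicate 1, 2 or 4 or Chd4KO replicate 3 and to 0 without Control replicate 3, and it was 5 without Chd4KO replicate 4. None of the 10 tested beta and gamma subunits was called, with Gng4 at 211 ± 34.2 and 194 ± 81.3 TPM (SD, n = 4 each) and Gng12 at 183 ± 16.8 and 133 ± 78.6 TPM.

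For the enzymes and effectors no member was called. Of 9 adenylyl cyclases, which make cAMP, 3 were tested, with Adcy9 at 10.7 ± 1.04 and 9.49 ± 4.42 TPM and Adcy6 at 6.33 ± 1.58 and 5.26 ± 2.95 TPM (SD, n = 4 each). Of 15 tested cAMP effectors the protein kinase A subunits Prkar1a and Prkar1b were highest, at 489 ± 38.6 and 305 ± 94.3 TPM and at 142 ± 20.5 and 158 ± 48.4 TPM. Of 10 tested phosphodiesterases, which break cAMP down, Pde8a was at 30.8 ± 3.16 and 24.7 ± 8.92 TPM and Pde3b at 22.8 ± 3.33 and 14.6 ± 7.70 TPM. Of 11 tested genes of the phospholipase C branch, Prkd1 was at 67.3 ± 7.68 and 35.5 ± 16.8 TPM and Prkcb at 36.3 ± 2.38 and 34.8 ± 14.7 TPM. Of 6 tested receptor kinases and arrestins, Grk2 was at 29.8 ± 3.24 and 28.7 ± 11.7 TPM and Grk3 at 27.0 ± 5.64 and 24.1 ± 13.2 TPM. The median log2 changes of these lists lay between -0.60 and -0.15, and that of all genes tested at -0.25.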

How the data were processed

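RNA of flow-sorted beta cells from 4 Control and 4 Chd4KO mice was sequenced, and 1 TPM table per library was used. Per the labels' protocols, cDNA was made with a SMART-Seq kit and libraries with a Nextera XT kit, which do not mark strand. The authors deposited TPM values scaled to a fixed total. The tools DESeq2, HTSeq, HISAT2, Trimmomatic and FastQC and build mm10 are named per the submitters' processing notes, and their versions, roles and annotation are not given in the sources used here. Gene symbols, positions and exon lengths came from GENCODE M21, of the same build, which holds 55227 of the 55487 identifiers.

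TPM multiplied by exon length was a whole multiple of 1 step in 98.5 to 98.7% of values above 0 in each library (tolerance 0.05 read), which gave reads per gene for depth and for an alternative test. Depth was 16.4 to 41.0 M reads in Control and 14.9 to 20.2 M in Chd4KO. Differences were tested in R 4.3.3 by limma 3.58.1, on log2(TPM + 1) values the authors' deposited TPM gave, genotype as the only term, for genes that reached 1 TPM in 4 or more libraries, with two-sided p-values adjusted by Benjamini-Hochberg over all genes tested. Fold changes on this scale understate changes of low genes. Summaries and plots used matplotlib 3.10.9, scipy 1.17.1, pandas 2.3.3 and numpy 2.4.6 in Python 3.11.15.

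The receptor genes, gene lists and motifs were chosen with earlier results of these data known. Named are called receptors, those whose mean reached 5 TPM in a group, and those whose groups do not overlap; others by range. From every other list come up to 6 called genes or, with none called, the 2 highest. In 5 simulated runs of this comparison 200 genes were changed, with 15288 genes tested on average. The share called was 0.593% at 1.5-fold, 3.53% at 2-fold and 59.9% at 4-fold, and 5.19% of calls were false. The runs gave every gene the same set spread between libraries, which was not estimated from these data. They also held no library of unlike composition, so these shares are not the power in these libraries. The 19 alternatives covered pseudocount, filter, scaling, variance model, replicate block, limma's voom on recovered reads, and libraries left out with the same genes tested. Counts of separated groups after scaling, and among genes below the minimum, were added after the values were seen.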

Additional observations from a re-analysis of the deposited data

Results flagged for a closer look

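In groups of 4 libraries, a library was picked out when its gap to the nearest other exceeded the 95% critical value of Dixon's test, as a share of the group's range. Chance does this in about 1 of 20 groups, and 9 of 80 groups checked were picked out. The 80 groups came from 40 quantities, which did not include every receptor. Cckar, at 12.9 TPM in Chd4KO replicate 2, was not among them. In Chd4KO replicate 4, Sstr3 was at 19.6 TPM against 102 to 116 TPM in the other Chd4KO libraries, and Vipr1 at 2.75 TPM against 8.89 to 9.59 TPM. In Chd4KO replicate 2, Crhr2 was at 5.81 TPM against 0.545 to 1.40 TPM, the summed acinar markers at 39609 TPM against 2.63 to 225 TPM, and the summed endothelial markers at 9.60 TPM against 6.41 to 6.90 TPM. In Chd4KO replicate 3, Htr1d was at 2.90 TPM against 0.819 to 1.06 TPM. In Control replicate 2 the acinar markers summed to 1574 TPM against 9.23 to 166 TPM, and Sstr5 was at 0.0592 TPM against 0 in the others, a value of 3 reads. In Control replicate 3, Mc5r was at 0.874 TPM against 0.387 to 0.401 TPM.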

How the results depend on the processing

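Over 19 alternatives Gpbar1, Oxtr and Gpr27 kept their direction and call, with log2 changes of 4.55 to 6.67, -4.40 to -2.52 and -2.54 to -2.07. Ffar4 kept its direction in all 19 and its call in 12. The number of called receptors stayed between 3 and 5 in every alternative, with Ffar2 added under array weights and without Chd4KO replicate 4, and Adora1 under median-of-ratios and quantile scaling. With the replicate number as a block Ffar4 was lost (adjusted p = 0.0654) and Sstr2 was gained (0.0497), and 274 genes, 1 other receptor and 0 transduction genes were called. The labels do not say whether the numbers pair the libraries. Same-numbered libraries deviated together with correlations of -0.02, 0.43, 0.08 and 0.04, and only number 2 exceeded its best correlation with another number. Both libraries of number 2 were also the highest of their group in summed acinar markers, and what they share was not tested.

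The count of 451 genes (233 higher, 218 lower) became 1364 (578, 786) with array weights, 723 (444, 279) with median-of-ratios scaling, 755 (466, 289) with quantile normalisation, 220 (98, 122) with a minimum TPM of 5 and 785 (393, 392) without Chd4KO replicates 2 and 4, and 171 to 829 when single libraries were left out. The count of 5 other receptors became 1 with a minimum TPM of 5 and 3 without a filter, and 1 to 6 when single libraries were left out. The 2 called transduction genes became 11 with array weights, 4 with median-of-ratios scaling, 6 with quantile normalisation, 0 with a minimum TPM of 5, 1 with a variance trend, 4 with voom and 7 without Chd4KO replicates 2 and 4, and 0 to 5 when single libraries were left out. The Chd4 change passed at -0.97 with array weights, -0.94 with median-of-ratios, -0.90 with quantile and -1.11 with hormone-free scaling and -1.23 with voom. It lay between -1.37 and -0.91 when single libraries were left out, and passed without Chd4KO replicate 1 (adjusted p = 0.0422) or 4 (0.0318) but not without the others (up to 0.206, without Control replicate 2), so that it passed in 7 of 19 alternatives. Where no value shows it, the cause was not tested.

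With 4 libraries a group, simulated 2-fold changes were recovered in 3.53% of genes, under a set spread not estimated from these libraries. A receptor that was not called is not shown to be unchanged.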
